A study of Mus musculus with 8 samples.

Results

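The 8 genes described here encode secreted trophic factors and receptors that serve them, and they were taken by symbol from the table of raw counts: Bdnf, Ntf3, Ntrk2, Ntrk3, Igf1, Igf1r, Cntf and Lif. All 8 symbols were found among the 41128 listed genes, and 6 of them passed the expression filter, while Cntf and Lif did not. The RNA was that of corpus callosum taken in the PLP-150Q mouse line, which models Huntington's disease by expressing a mutant huntingtin fragment in oligodendrocytes. Every mouse, control included, was of this line, and no mice without the transgene entered the comparison. Treatment began at an age of 3 months and lasted 2 months, with 4 libraries from mice given LAQ at 5 mg/kg and 4 from mice given purified water (vehicle), all aged 5 months. LAQ is taken here to be laquinimod, a drug that acts on the immune system. The labels do not say whether each library came from a separate mouse, so the p-values may measure only technical spread between libraries.

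Neurotrophins act on Trk receptor tyrosine kinases. Bdnf binds TrkB, the product of Ntrk2, and neurotrophin 3, the product of Ntf3, binds chiefly TrkC, the product of Ntrk3. In forebrain, Bdnf mRNA is made mainly by excitatory neurons and Ntrk2 mRNA by neurons and, as a truncated receptor, by astrocytes. Insulin-like growth factor 1 signals through the receptor kinase Igf1r and promotes oligodendrocyte growth and myelination, and microglia are among its sources. Ciliary neurotrophic factor (Cntf) and leukaemia inhibitory factor (Lif) are cytokines of the gp130 family that support oligodendrocyte survival, and Cntf needs the receptor subunit Cntfr.

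In GRCm38 (GENCODE M21), Bdnf lies on chromosome 2 from 109674700 to 109727007, Ntf3 on chromosome 6 from 126101412 to 126166910, Ntrk2 on chromosome 13 from 58806569 to 59133970 and Ntrk3 on chromosome 7 from 78175959 to 78738012. Igf1 lies on chromosome 10 from 87858265 to 87937042, Igf1r on chromosome 7 from 67952827 to 68233668, Cntf on chromosome 19 from 12763660 to 12765632 and Lif on chromosome 11 from 4257557 to 4272514. All are annotated as protein-coding. In that annotation 14.4% of the exonic bases of Bdnf also lie in exons of Gm45346 on the opposite strand. The strand setting of the counting is not known here, so reads from these bases cannot be assigned to either gene.

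Bdnf has several start sites, and a count per gene sums over all of them, so the values that follow cannot be assigned to one promoter. RefSeq windows on GRCm38.p6, each reaching from 250 bases before to 50 bases after a start, were at hand for 7 of the 8 genes, 14 windows in all, of which 7 belong to Bdnf and 2 to Ntf3. They were searched on both strands for TGACG, the half-site of the cyclic AMP response element, since CREB binding to such an element is known for activity-dependent Bdnf transcription. The half-site (CGTCA on the other strand) occurred in 1 of the 14 windows, window 3 of Bdnf in the order of the table, and in 20.8% of all 32851 windows. That match starts 35 bases before the start site. With the bases just before it, the match reads CACGTCA, which 2.01% of all windows hold. This longer stretch was not the half-site searched for and includes the match's own flanking bases. Its share therefore does not measure how unusual the match is. The full element TGACGTCA, found in 1.79% of all windows, contains the half-site and was in none of the 14. Window 3 of Bdnf is shown as the 1 window with the match. Both Ntf3 windows, which lack the half-site, are shown because Bdnf and Ntf3 had a similar order of libraries (Spearman's rho 0.88, Pearson's r of log2 CPM 0.49). Capitals mark the half-site, and each window is given from 5′ to 3′ on the strand of its gene.
Bdnf, window 3, chr2:109692186-109692485, plus strand: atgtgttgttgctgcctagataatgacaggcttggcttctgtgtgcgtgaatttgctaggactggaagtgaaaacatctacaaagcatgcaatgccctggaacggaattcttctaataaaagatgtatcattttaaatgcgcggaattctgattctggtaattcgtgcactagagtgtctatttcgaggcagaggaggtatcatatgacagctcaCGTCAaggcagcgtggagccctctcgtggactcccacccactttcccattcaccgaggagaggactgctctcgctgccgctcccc
Ntf3, window 1, chr6:126166695-126166994, minus strand: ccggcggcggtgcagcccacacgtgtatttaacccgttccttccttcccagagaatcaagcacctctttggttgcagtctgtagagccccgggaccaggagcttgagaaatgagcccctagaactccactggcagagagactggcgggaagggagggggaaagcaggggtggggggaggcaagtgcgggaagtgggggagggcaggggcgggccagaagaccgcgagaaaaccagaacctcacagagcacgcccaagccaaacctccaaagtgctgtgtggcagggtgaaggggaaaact
Ntf3, window 2, chr6:126164911-126165210, minus strand: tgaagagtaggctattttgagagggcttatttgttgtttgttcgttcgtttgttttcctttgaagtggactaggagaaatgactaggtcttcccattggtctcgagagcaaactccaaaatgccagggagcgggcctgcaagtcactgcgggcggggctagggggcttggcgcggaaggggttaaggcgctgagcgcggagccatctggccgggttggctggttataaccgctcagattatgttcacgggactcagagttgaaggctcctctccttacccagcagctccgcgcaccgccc
A match describes the letters only and does not show that a factor is bound.

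Libraries held 8790749 to 12021429 counted reads. Values are given as CPM, read counts per library size after adjustment by TMM factors. The 12 oligodendrocyte markers listed were all detected, with a summed level of 12297 to 14066 CPM in control and 13028 to 17035 CPM in LAQ and positive log2 fold changes for all 12 (median 0.21). Ependymal markers (9 of 10 tested) summed to 48.7 to 65.0 CPM in control and 74.9 to 90.7 CPM in LAQ, and thalamic markers (9 of 10 tested) to 294 to 438 CPM and 182 to 335 CPM. The part of these 3 lists in the results below was not tested. Markers of grey-matter neurons were present as well. Among these, the 10 hippocampal and dorsal midline markers summed to 417 to 610 CPM in control and 538 to 856 CPM in LAQ, and the 14 cortical excitatory markers to 2293 to 2601 CPM in control and 1593 to 2592 CPM in LAQ. The 9 striatal markers found in the table summed to 1754 to 2294 CPM in control, but to 688 CPM in LAQ 5 and 4303 CPM in LAQ 7. LAQ 5 and LAQ 7 thus lie apart from the other libraries, at opposite ends of these striatal sums. Fold changes of the 6 tested trophic genes are therefore given with all libraries and with each of these left out. For other genes such refits are given only in part. On other lists LAQ 6 was the lowest library, with a thalamic sum of 182 CPM. Its endothelial sum was 303 CPM (487 to 598 CPM in control) and its mural sum 191 CPM (296 to 375 CPM in control). The part of the endothelial and mural lists in the results below was not tested. With edgeR (quasi-likelihood test), 0% of the 15771 tested genes, 0 in number, passed an adjusted p of 0.05, while 1750 (11.1%) passed that level unadjusted and 6.39% had groups that did not overlap, and DESeq2 called 129 genes, 0.845% of those it adjusted. Without LAQ 7, edgeR called 339 genes, or 2.13% of 15898 tested, and without LAQ 5 it called 0 of 15940 (0%), with 1349 (8.46%) at an unadjusted p under 0.05.

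Of the 6 tested genes, 0 passed edgeR's test at an adjusted p under 0.05, and DESeq2 called 0 as well. At an unadjusted p under 0.05 there were 2, Ntf3 and Ntrk3, both higher in LAQ, where 4.77% of all tested genes were higher at that level. Without LAQ 7, Bdnf was the 1 gene of the set past the adjusted threshold, where 0.736% of all tested genes were called higher. The median log2 fold change of the 6 genes was 0.10, beside -0.0012 for all tested genes, and 3 were positive and 3 negative. In bulk tissue, fewer cells of a type and less RNA per cell cannot be told apart.

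**Figure D1:**
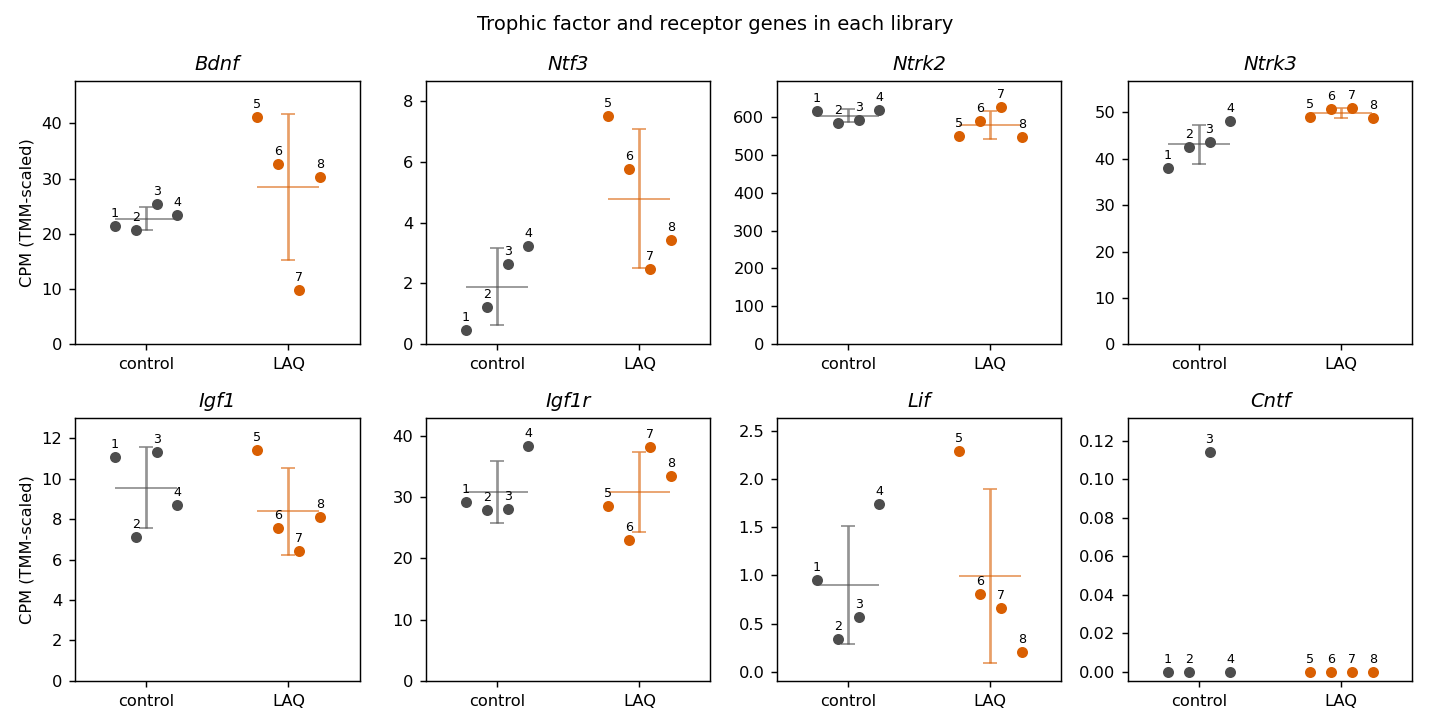
CPM (TMM-scaled) of the 8 genes in each library, 1 panel per gene with its own linear axis; points are libraries, numbered 1 to 4 (control) and 5 to 8 (LAQ), and bars give the mean and SD (n = 4 per group, not drawn for Cntf). For Bdnf, 3 LAQ libraries lie above every control library and LAQ 7 lies below them, at 9.80 CPM, and for Ntrk3 the groups do not overlap.

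Bdnf, the ligand of TrkB, stood at 21.4, 20.7, 25.4 and 23.4 CPM in control 1 to 4, and at 41.2, 32.6, 9.80 and 30.4 CPM in LAQ 5 to 8. The controls lay close together, 3 LAQ libraries were higher than any of them, and LAQ 7 was lower than any of them. The controls averaged 22.7 ± 2.11 CPM and the treated libraries 28.5 ± 13.3 CPM (SD, n = 4 each). The log2 fold change was 0.32 ± 0.31 (SE), with a 95% interval of -0.35 to 0.99 and an edgeR adjusted p of 0.749, so the difference was smaller than the spread between the LAQ libraries. Leaving out LAQ 7 gave a LAQ mean of 34.7 ± 5.70 CPM (SD, n = 3) and a log2 fold change of 0.61 ± 0.12 (SE) with an edgeR adjusted p of 0.0256. Leaving out LAQ 5, the highest library, gave 0.09 ± 0.30 (SE) and an adjusted p of 0.956. With both left out it was 0.48 ± 0.12 (SE) with an adjusted p of 0.102.

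Ntf3, which encodes neurotrophin 3, was scarce. It gave 5, 11, 23 and 39 reads in control 1 to 4 and 79, 64, 30 and 33 in LAQ 5 to 8, or 0.478, 1.23, 2.63 and 3.23 CPM against 7.53, 5.76, 2.47 and 3.43 CPM. LAQ 5, 6 and 8 were above every control library, and LAQ 7 lay among the controls. The controls averaged 1.89 ± 1.26 CPM and the treated libraries 4.80 ± 2.28 CPM (SD, n = 4 each). On the log2 scale LAQ was higher by 1.32 ± 0.48 (SE), with a 95% interval of 0.28 to 2.36. The unadjusted edgeR p was 0.0175 and the adjusted p 0.358. Without LAQ 7 the log2 fold change was 1.54 ± 0.44 (SE) with an adjusted p of 0.0810. Without LAQ 5, the highest library, it was 1.02 ± 0.49 (SE), with a 95% interval of -0.04 to 2.09, an unadjusted p of 0.0584 and an adjusted p of 0.606. Its size also rested on the controls, with 1.00 without control 1 and 1.76 without control 4.

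**Figure D2:**
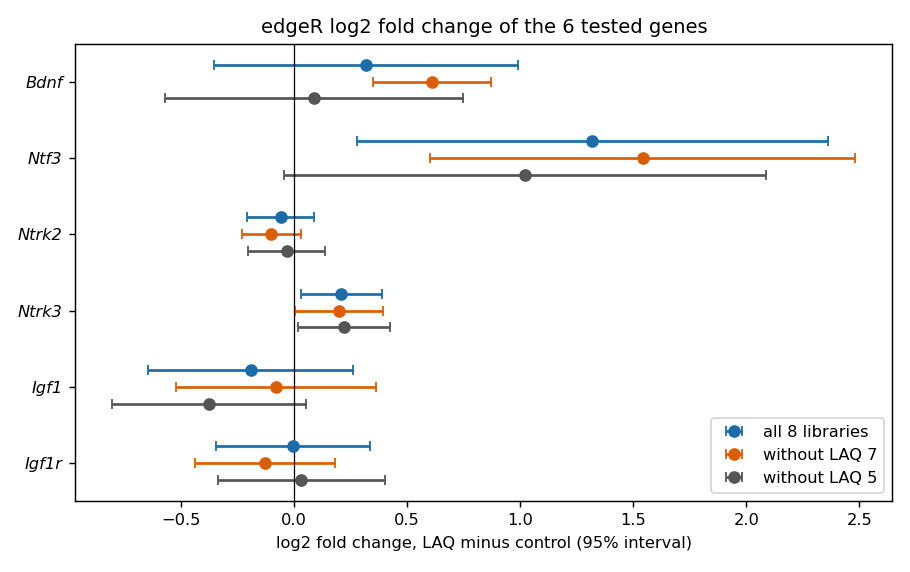
Log2 fold change of LAQ minus control with its 95% interval for the 6 tested genes, from edgeR with all 8 libraries (blue), without LAQ 7 (orange) and without LAQ 5 (grey). The Bdnf interval spans 0 with all libraries (0.32) and without LAQ 5 (0.09) and lies above 0 without LAQ 7 (0.61), and the Ntf3 interval reaches below 0 without LAQ 5 (1.02, from -0.04 to 2.09).

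The hippocampal and dorsal midline markers ran in part alongside both ligands. Log2 fold changes were above 0 for all 10 listed markers (median 0.72). Of these, 5 had an unadjusted edgeR p under 0.05, where 4.77% of all tested genes were higher. Their smallest adjusted p was 0.290, and the groups overlapped for all 10. Dsp was the 1 marker of this list at 0 in a library (control 2). The score of this list, the mean z score of its genes over the 8 libraries, was 1.30 in LAQ 5, 0.75 in LAQ 6, 0.25 in LAQ 8 and -0.52 in LAQ 7, against -0.75, -1.01, 0.19 and -0.20 in control 1 to 4. The 3 libraries with the highest score were thus those with the most Bdnf and the most Ntf3. At the low end this did not hold for Bdnf: LAQ 7 had the least Bdnf, yet it scored above control 1 and control 2. With the score of this list as a covariate in edgeR, the log2 fold change of Bdnf was -0.48 ± 0.26 (SE, adjusted p = 0.678). That of Ntf3 was 0.35 ± 0.40 (SE, adjusted p = 0.903). The score was itself higher in LAQ 5, 6 and 8 than in every control library, so this covariate overlaps with the group. The fit therefore cannot separate treatment from the regional content of the libraries, and the part of either was not tested.

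Other regional markers also set LAQ libraries apart, and which ones differed by list. The cortical excitatory score was lowest in LAQ 7, at -0.80, and next lowest in LAQ 8, at -0.51, against 0.11 to 0.42 in control. LAQ 5, at -0.12, also lay below every control library. The striatal score was highest in LAQ 7, at 1.46, and lowest in LAQ 5, at -2.06, against -0.22 to 0.35 in control, so the library with the least Bdnf had the most striatal marker RNA and the library with the most Bdnf had the least. With the cortical score as covariate, edgeR gave a log2 fold change of 0.84 ± 0.35 (SE, adjusted p = 0.283) for Bdnf and 1.68 ± 0.57 (SE, adjusted p = 0.211) for Ntf3. This covariate overlaps with the group as well, so the fit cannot separate treatment from regional content. The part of either was not tested. The part of the striatal markers in these differences was not tested.

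**Figure D3:**
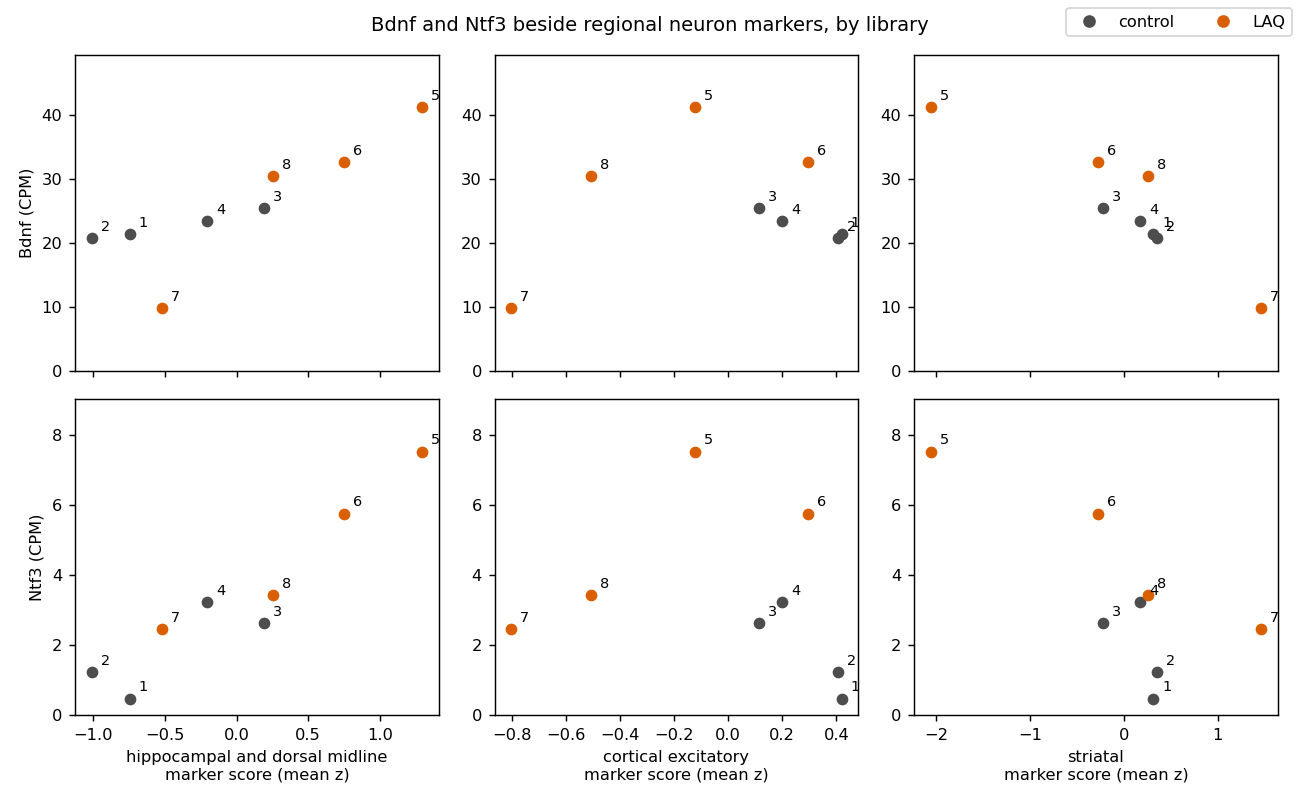
Bdnf (top) and Ntf3 (bottom) in CPM against the hippocampal, cortical excitatory and striatal marker scores (mean z score of log2 CPM over each list's genes), 1 point per library, grey for control and orange for LAQ. LAQ 5, 6 and 8 have the highest hippocampal scores (1.30, 0.75 and 0.25) and the most of both mRNAs, and LAQ 7 lies at 1.46 on the striatal score with 9.80 CPM of Bdnf.

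Ntrk2, which encodes TrkB, was the most abundant of the 8 genes. It stood at 616, 584, 591 and 618 CPM in control 1 to 4 and 550, 589, 627 and 547 CPM in LAQ 5 to 8. The groups overlapped, with the highest library (LAQ 7) and the lowest (LAQ 8) both in LAQ. The difference on the log2 scale was -0.06 ± 0.07 (SE), with a 95% interval of -0.21 to 0.09 and an edgeR adjusted p of 0.792, and it was -0.10 without LAQ 7 and -0.03 without LAQ 5. Gene counts do not separate the full-length from the truncated TrkB transcript.

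Ntrk3, which encodes TrkC, was the 1 gene of the set whose groups did not overlap. It stood at 38.0, 42.5, 43.7 and 48.2 CPM in control 1 to 4 and 49.0, 50.7, 50.9 and 48.9 CPM in LAQ 5 to 8. Of all tested genes 2.78% were higher in LAQ without overlap, and with 1 of 6 genes nothing about the set is read from this. The lowest LAQ library was close to the highest control library, and the spread was wider in control (43.1 ± 4.20 CPM, SD, n = 4) than in LAQ (49.9 ± 1.1 CPM, SD, n = 4). The log2 fold change was 0.21 ± 0.08 (SE), a 1.16-fold difference, with a 95% interval of 0.03 to 0.39, an unadjusted edgeR p of 0.0259 and an adjusted p of 0.390. It was 0.20 without LAQ 7, 0.22 without LAQ 5 and 0.15 without control 1, the lowest control library. With the hippocampal and dorsal midline score as covariate it was 0.18 ± 0.10 (SE, adjusted p = 0.703). The unadjusted p was under 0.05 in 15 of 22 alternatives.

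Igf1 stood at 11.1, 7.13, 11.3 and 8.69 CPM in control 1 to 4 and 11.4, 7.56, 6.42 and 8.11 CPM in LAQ 5 to 8. The groups overlapped almost fully, with 1 LAQ library above and 1 below the range of the controls. The means were 9.56 ± 2.01 and 8.38 ± 2.15 CPM (SD, n = 4 each), which is -0.19 ± 0.21 (SE) on the log2 scale, with a 95% interval of -0.64 to 0.26 and an edgeR adjusted p of 0.778. Homeostatic microglia markers, 12 of 12 tested, summed to 692 to 764 CPM in control and 637 to 760 CPM in LAQ. Their lowest sum was in LAQ 5, the library with the most Igf1. With the microglia score as covariate the log2 fold change of Igf1 was -0.28 ± 0.24 (SE, adjusted p = 0.791). The hippocampal and dorsal midline score gave -0.54 ± 0.22 (SE, unadjusted p = 0.0269, adjusted p = 0.556). The cortical score gave -0.08 ± 0.29 (SE, adjusted p = 0.927). Both regional scores overlap with the group. The unadjusted p was under 0.05 in 1 of 22 alternatives. Without LAQ 7 the log2 fold change was -0.08 and without LAQ 5 it was -0.38, with adjusted p of 0.877 and 0.644.

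Igf1r, the receptor, stood at 29.1, 28.0, 28.0 and 38.3 CPM in control 1 to 4 and 28.6, 23.0, 38.2 and 33.5 CPM in LAQ 5 to 8. Control 4 and LAQ 7 were the highest libraries and lay at nearly the same level. The group means were 30.9 ± 5.00 and 30.8 ± 6.52 CPM (SD, n = 4 each), and the log2 fold change was -0.01 ± 0.16 (SE), with a 95% interval of -0.34 to 0.33 and an edgeR adjusted p of 0.997. It was -0.13 without LAQ 7 and 0.03 without LAQ 5. With the cortical score as covariate it was -0.40 ± 0.15 (SE), with an unadjusted p of 0.0227 and an adjusted p of 0.254. That score overlaps with the group.

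Lif lay below the expression filter, with 10, 3, 5 and 21 reads in control 1 to 4 and 24, 9, 8 and 2 in LAQ 5 to 8, 82 in all. In CPM these were 0.956, 0.334, 0.572 and 1.74 against 2.29, 0.810, 0.659 and 0.208. The highest and the lowest library were both LAQ, and LAQ 8 and control 2 were at or below 3 reads. An exact two-sided permutation test over the 70 assignments of the libraries gave p = 0.857 for a difference in means of 0.0908 CPM, where the smallest p this design allows is 0.0286. No difference was detectable at this depth.

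Cntf had 1 read over all 8 libraries, in control 3. In each library 3 reads correspond to 0.247 to 0.343 CPM, and both groups were under that floor, so no fold is given. Its count is uncertain, because 78.9% of its exonic bases (847 bases) are also annotated as exons of Zfp91, a zinc finger gene on the same strand whose annotated span contains Cntf. HTSeq's default rule counts a read that fits 2 genes for neither, and whether that rule was applied is not known here. Zfp91 itself stood at 72.7 to 77.1 CPM in control and 66.9 to 68.7 CPM in LAQ. Its groups did not overlap, and its log2 fold change was -0.13 ± 0.06 (SE, edgeR adjusted p = 0.464). These values therefore do not tell how much Cntf mRNA the tissue held.

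**Figure D4:**
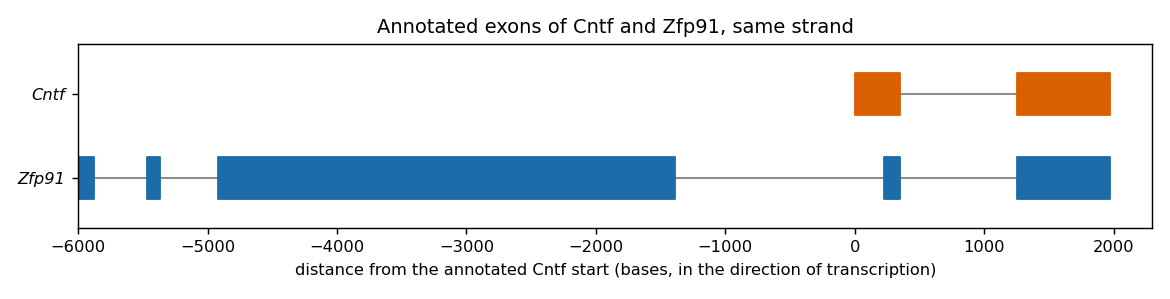
Annotated exons (boxes) and introns (lines) of Cntf and of the 3′ part of Zfp91, drawn to scale against the distance in bases from the Cntf start, in the direction of transcription. The last exon of both genes is the same, and in all 78.9% of the exonic bases of Cntf are shared.

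Levels of different genes were compared as CPM per kilobase of annotated exon. In control, Ntrk2 averaged 31.2 ± 0.898, Bdnf 3.66 ± 0.340, Igf1r 1.84 ± 0.298, Ntrk3 1.43 ± 0.139, Ntf3 1.1 ± 0.736, Igf1 0.965 ± 0.203 and Lif 0.207 ± 0.141 CPM per kilobase (SD, n = 4 each). Over all 8 libraries the range of Ntrk2 (28.3 to 32.5 CPM per kilobase) lay above all others. The ranges of Bdnf, Igf1r, Ntrk3, Ntf3 and Igf1 each overlapped the next in this order. Igf1 (0.649 to 1.154) and Lif (0.0478 to 0.526) did not overlap. The union of annotated exons is an upper limit of the length in use, so genes with long alternative exons, such as Ntrk3, may be placed too low.

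Over the 8 libraries, the order of Bdnf was closest to that of Ntf3 within the set (Spearman's rho 0.88, Pearson's r of log2 CPM 0.49), and Bdnf and Ntrk2 ran in opposite order (rho -0.64, r -0.75). Ntf3 and Ntrk3 had an r of 0.86 and a rho of 0.62. These are descriptions over 8 libraries that differ in depth and regional markers, differences that all genes of a library share, and no test was made. Among 12960 other genes of sufficient level, Gpc1 (a glypican, r = 0.98), Raver2 (r = 0.98) and Fam19a2 (r = 0.97) followed Bdnf most closely. Fkbp7 (0.99), Fat4 (0.97) and Cd38 (0.96) were closest to Ntf3, Lancl3 (0.98), Pan2 (0.98) and Nmnat3 (0.98) to Ntrk2, and Slc35a1 (0.96), Rab21 (0.95) and Arf4 (0.93) to Ntrk3. For Igf1 the closest were Prr14l (0.97), Pde7a (0.96) and Manbal (0.94), and for Igf1r they were Xkr6 (0.97), Gigyf1 (0.96) and Tek (0.96), the last an endothelial receptor gene. Their rank correlations ran from 0.79 (Slc35a1) to 1.

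Other genes of neurotrophin signalling gave 0 calls by edgeR. Of 15 tested neurotrophins, receptors, sortilins and processing enzymes, 9 were positive and 6 negative, with a median log2 fold change of 0.01, and 0 had an unadjusted p under 0.05. Of all tested genes 11.1% were under that level. Sorl1, a sorting receptor that binds TrkB, and Pcsk1, a proprotein convertase, stood at 0.13 ± 0.13 and -0.17 ± 0.16 (SE, adjusted p = 0.759 and 0.747). With the hippocampal and dorsal midline score as covariate Sorl1 stood at -0.12 and Pcsk1 at -0.18. With the cortical score Sorl1 stood at 0.37 and Pcsk1 at 0.13.

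Of 20 Trk adaptors and regulators, 9 were positive and 11 negative (median -0.02), and 1 was higher and 2 were lower at an unadjusted edgeR p under 0.05. At that level 4.77% of all tested genes were higher and 6.33% lower. Rapgef1, a guanine nucleotide exchange factor for Rap1, averaged 99.0 ± 4.68 CPM in control against 76.4 ± 9.75 CPM in LAQ without overlap, with a log2 fold change of -0.37 ± 0.09 (SE) and an edgeR adjusted p of 0.189. DESeq2 called it, and so did edgeR without LAQ 7 (-0.46), while without LAQ 5 it stood at -0.35 (adjusted p = 0.389). The adaptor Shc2 averaged 56.2 ± 3.43 and 46.7 ± 1.52 CPM, also without overlap (-0.27 ± 0.07, SE, edgeR adjusted p = 0.235), and the ubiquitin ligase gene Nedd4l stood at 0.19 ± 0.09 (SE, adjusted p = 0.444). Lower without overlap were 3.61% of all tested genes, against these 2 of 20.

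Among 15 regulators and targets of Bdnf, 4 were positive and 11 negative, with a median log2 fold change of -0.13, and 3 were lower at an unadjusted edgeR p under 0.05, a level at which 6.33% of all tested genes were lower. Arc, an activity-regulated gene of dendrites that Bdnf can induce, averaged 756 ± 174 CPM in control against 521 ± 76.4 CPM in LAQ without overlap, with a log2 fold change of -0.54 ± 0.15 (SE) and an edgeR adjusted p of 0.249. DESeq2 called Arc. Vgf, a neuropeptide precursor gene induced by neurotrophins, averaged 135 ± 12.7 and 111 ± 18.9 CPM (-0.28 ± 0.12, SE, edgeR adjusted p = 0.408). Without LAQ 5, its lowest library, Vgf stood at -0.18 (edgeR adjusted p = 0.658), and without LAQ 7 at -0.37 (adjusted p = 0.0776). With the hippocampal and dorsal midline score as covariate Vgf stood at -0.06 and Arc at -0.56 (edgeR adjusted p = 0.935 and 0.463). With the cortical score Vgf stood at -0.33 and Arc at -0.28 (adjusted p = 0.350 and 0.482). Both scores overlap with the group, and the part of regional markers in these differences was not tested.

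Of 24 listed IGF pathway genes, 16 were tested, 6 positive and 10 negative (median -0.04), with 2 higher and 1 lower at an unadjusted edgeR p under 0.05, where 4.77% and 6.33% of all tested genes were. The same counts did not overlap between the groups, against 2.78% higher and 3.61% lower of all tested genes. Igfbp6, an IGF-binding protein with a preference for IGF2, stood at 41.0, 44.8, 38.4 and 38.3 CPM in control 1 to 4 and 30.2, 31.2, 29.1 and 27.2 CPM in LAQ 5 to 8. The groups did not overlap, and its log2 fold change of -0.46 ± 0.09 (SE) had an edgeR adjusted p of 0.140. DESeq2 called it with all libraries, as did edgeR without LAQ 7, and without LAQ 5 its adjusted p was 0.250. Grb14, an adaptor that inhibits insulin receptor signalling, averaged 43.3 ± 1.80 CPM in control against 54.0 ± 5.11 CPM in LAQ without overlap (0.32 ± 0.08, SE, edgeR adjusted p = 0.228).

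Pappa, which encodes a protease that cleaves IGF-binding proteins and was named after its values were seen, was scarce (127 reads) and averaged 0.886 ± 0.310 and 2.07 ± 0.415 CPM, likewise without overlap (1.18 ± 0.32, SE, edgeR adjusted p = 0.239). Igfbp4, a further IGF-binding protein gene, stood at 0.27 ± 0.15 (SE, edgeR adjusted p = 0.510). It stood at -0.0086 with the hippocampal and dorsal midline score and at 0.58 with the cortical score. Igf2 and Igfbp2, both abundant in choroid plexus and meninges and named after their values were seen, stood at 0.33 ± 0.33 and 0.36 ± 0.25 (SE, edgeR adjusted p = 0.753 and 0.619). Choroid plexus markers, 10 of 10 tested, summed to 398 to 2575 CPM in control and 1330 to 3736 CPM in LAQ. Control 2 had the lowest sum and the least Igf2 (19.4 CPM). The part of choroid plexus in these values was not tested.

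Of 24 listed ligands, receptors and signalling genes of the gp130 family, 18 were tested, 8 positive and 10 negative (median -0.01), with 1 higher and 0 lower at an unadjusted edgeR p under 0.05 (4.77% and 6.33% of all tested genes). Ctf1, which encodes the ligand cardiotrophin 1, stood at 0.45 ± 0.21 (SE, edgeR adjusted p = 0.454), and Cntfr, named after its values were seen, at -0.33 ± 0.17 (SE, adjusted p = 0.503). The receptor subunit mRNAs Lifr and Il6st averaged 46.3 and 93.3 CPM in control, with 45.0 and 93.6 CPM in LAQ, so both were detected in all libraries where Lif was scarce.

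Of 36 other growth factor genes and receptors tested, 15 were positive and 21 negative (median -0.03), with 1 lower and 0 higher at an unadjusted edgeR p under 0.05. Of all tested genes 6.33% were lower and 4.77% higher at that level. Lower without overlap was 1 of the 36, where 3.61% of all tested genes were. Ptn, which encodes the heparin-binding growth factor pleiotrophin, averaged 174 ± 20.2 CPM in control against 141 ± 10.4 CPM in LAQ without overlap, with a log2 fold change of -0.30 ± 0.09 (SE) and an edgeR adjusted p of 0.269. Vegfb and Fgfr3 followed, both at -0.19 ± 0.09 (SE, adjusted p = 0.450 and 0.456).

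**Figure D5:**
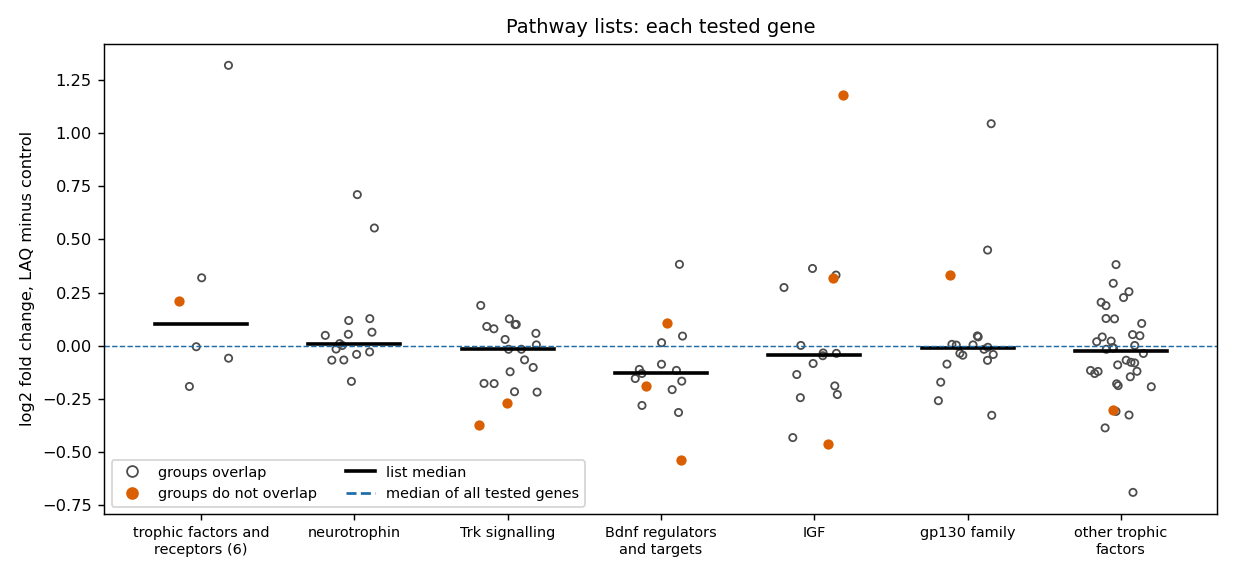
Log2 fold change (LAQ minus control, edgeR, all 8 libraries) of each tested gene in the set of trophic factors and in the 6 pathway lists; filled points are genes whose groups do not overlap, black bars are list medians and the dashed line is the median of all tested genes. The list medians run from -0.13 (Bdnf regulators and targets) to 0.10 (the 6 tested trophic genes), and single genes such as Ntf3 (1.32) and Pappa (1.18) lie far from them.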

How the data were processed

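Poly(A) RNA of 8 corpus callosum libraries was sequenced, and the groups come from the sample titles (control 1 to 4, LAQ 5 to 8). GRCm38.p3, STAR 2.5.2b, DESeq2 1.10.1, HTSeq and bcl2fastq 2.17.1.14 are named in the submitters' processing notes; the annotation release and strand setting are not given in the sources used here. The authors deposited raw counts per gene symbol, and a second deposited table holds normalized signal, the count divided by 1 size factor per library (largest relative deviation 5.1e-15), used here as an alternative scaling. Columns left unused numbered 0.

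Genes passing edgeR's filterByExpr (minimum count 10, total 15) were scaled by TMM and tested with the two-sided quasi-likelihood test of edgeR 4.0.16 (R 4.3.3, with limma 3.58.1), with Benjamini-Hochberg adjustment over all 15771 genes, a threshold of 0.05 and no covariate. SE is the log2 fold change divided by the root of F, and log2 CPM used a prior count of 2. Intervals are 95% intervals of the fit. Lif was tested by exact permutation. Exonic lengths are unions of exons in GENCODE M21, matched by symbol. The alternatives used DESeq2 1.42.0, sva 3.50.0 and limma voom, other scalings, filters and covariates, and each library left out; leaving out LAQ 5 and 7 together was chosen after seeing the data.

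The genes, lists and alternatives were chosen with earlier results of these data known. Named are the 8 genes, the 3 genes of smallest p at a mean log2 CPM of at least 1 in each of 6 pathway lists, the 3 genes most correlated with each tested gene, and genes said to be named after their values were seen. Zfp91, Lifr and Il6st are also named, outside this rule. Some genes that this rule selects are not reported here. On simulated counts for LAQ against control (15771 genes), the test recovered 62% of 1.5-fold and 84% of 2-fold changes, with 13 false calls among 182. The simulated counts varied independently between genes, while the real libraries differ in regional markers that many genes share. These shares may therefore not hold for the real libraries. Figures were drawn with matplotlib 3.10.9.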

Additional observations from a re-analysis of the deposited data

Results flagged for a closer look

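In 2 cases among 52 groups of 4 libraries, 1 library lay far from the other 3 by Dixon's gap criterion, which chance meets in about 1 of 20 groups. Igf1r stood at 38.3 CPM in control 4, against 28.0 to 29.1 CPM in the other controls, and without control 4 its log2 fold change was 0.12. Zfp91 stood at 77.1 CPM in control 3, against 72.7 to 73.4 CPM in the others.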

How the results depend on the processing

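Of 528 recomputed fold changes of 24 genes, 507 kept both direction and side of the threshold. All of these genes were uncalled by edgeR with all libraries, so keeping the side mostly meant staying uncalled. The count does not measure how stable the sizes were. Of 66 recomputed list medians, which have no test, 9 turned sign (5 for the gp130 family, 2 for Trk signalling, 1 each for the neurotrophin and IGF lists). No paired analysis was possible because the groups share no replicate numbers. The count of called genes, 0 with edgeR, was 25 without an expression filter, 129 with DESeq2, 1 with voom and sample weights, 27 with 1 surrogate variable, 26 with the cortical score and 62 without LAQ 5 and 7, and 0 to 339 with 1 library left out, the 339 being without LAQ 7. Of the 8 trophic genes, 0 to 1 were called with 1 library left out, the 1 being Bdnf without LAQ 7 (0.61). Bdnf was negative with 1 surrogate variable (-0.21), the hippocampal score (-0.48) and the microglia score (-0.0386), and its adjusted p ran from 0.0256 to 0.986 over 22 alternatives. Ntf3 and Ntrk3 were higher in all 22 alternatives and Ntrk2 and Igf1 lower in all 22, with adjusted p of at least 0.0810, 0.242, 0.395 and 0.477. Igf1r was positive without a filter (0.00611), with DESeq2 (9.52e-05), 1 surrogate variable (0.0801), the hippocampal (0.131) and microglia (0.0364) scores, and without control 4 (0.12), LAQ 5 (0.03) or LAQ 6 (0.11), and ran from -0.13 to 0.12 with 1 library left out. With the hippocampal score Sorl1 (-0.12) and Igfbp4 (-0.0086) turned negative, and with the cortical score Pcsk1 (0.13) turned positive. The Lif difference ran from -0.341 to 0.370 CPM with 1 library left out, negative without control 2 (-0.0978), control 3 (-0.0185) or LAQ 5 (-0.341). With 1 library left out, list medians ran from -0.0744 (without LAQ 7) to 0.00799 for Trk signalling and from -0.125 (without LAQ 7) to 0.0334 (without LAQ 8) for IGF genes. The cause of these shifts was not tested. Depth limits Lif, Ntf3 and Pappa, whose counts were in the single or double digits per library, and Cntf was below the floor.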
